A study of Mus musculus with 6 samples.

Results

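Sort1 and Rragd encode a pair of proteins that serve the lysosome, sortilin and RagD, and were followed here in mouse kidney RNA. They are 2 of the 9519 genes that the deposited tables allow to be read, and both were chosen because they differed between the groups of these same libraries, so their own difference is given as a description without a test. The 6 RNA-seq libraries were made from total kidney RNA of C57BL/6 mice at postnatal day 21, 3 labelled healthy and 3 labelled with acute renal failure (ARF). No allele, agent or procedure is named for either group, so the way renal failure arose is unknown here, as is whether each library came from its own animal. Statistical tests therefore measure the spread between these libraries, which may be technical.

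Sortilin is a receptor of the VPS10 domain family that binds cargo in the Golgi and carries it to endosomes and lysosomes. Its known cargo includes prosaposin, acid sphingomyelinase and progranulin, and in fat and muscle it takes part in the storage of the glucose transporter GLUT4. RagD is 1 of the small Rag GTPases. Paired with RagA or RagB and docked on the Ragulator complex, RagC or RagD brings the growth kinase complex mTORC1 to the lysosome when amino acids are plentiful. RRAGD is a known target of the MiT-TFE transcription factors, and variants in it are known from an inherited human disorder of renal magnesium and salt loss with heart muscle disease.

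What the tables hold for each gene decides what can be said of it. Each deposited row carries a gene name and a set of exon intervals, but at many places the intervals lie, in GRCm38 coordinates, on the exons of a different gene from the one named. Rows were therefore given to genes by position: a row counted for a gene when at least 90% of the exon bases it overlaps belong to that gene, with at least 25 bases. Rragd (ENSMUSG00000028278.14, chr4:32983037-33022180, plus strand) was read over all 5173 of its annotated exon bases, in the row of its own name. Sort1 (ENSMUSG00000068747.14, chr3:108284082-108361511, plus strand) was read over 881 of 6904 exon bases, 12.8%, through 4 rows that carry the names Celsr2, Sars, Gm22942 and Gm43438.

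The coding pieces of Sort1 that were counted are shown first, because every Sort1 value below rests on them and on 379 bases of the 3′ untranslated region in exon 21 (chr3:108358586-108358964, not printed). They are given 5′ to 3′ on the plus strand of GRCm38, with exons numbered along the GENCODE M21 transcript that holds them all. The row named Celsr2 holds the pieces of exons 2 and 3, the row named Sars those of exons 8, 10 and 12, and the row named Gm22942 that of exon 15.
Sort1 exon 2, chr3:108308477-108308536: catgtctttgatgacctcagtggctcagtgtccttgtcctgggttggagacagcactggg
Sort1 exon 3, chr3:108310144-108310184: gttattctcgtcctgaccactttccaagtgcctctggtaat
Sort1 exon 8, chr3:108334576-108334696: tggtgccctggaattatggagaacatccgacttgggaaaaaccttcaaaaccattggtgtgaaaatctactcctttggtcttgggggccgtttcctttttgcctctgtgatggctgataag
Sort1 exon 10, chr3:108338811-108338936: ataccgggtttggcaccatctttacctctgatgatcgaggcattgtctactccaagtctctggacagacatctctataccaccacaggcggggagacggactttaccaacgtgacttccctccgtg
Sort1 exon 12, chr3:108344854-108344895: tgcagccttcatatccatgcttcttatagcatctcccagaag
Sort1 exon 15, chr3:108348646-108348757: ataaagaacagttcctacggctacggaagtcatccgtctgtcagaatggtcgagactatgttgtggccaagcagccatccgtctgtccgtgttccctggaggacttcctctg

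None of the 678 30-base windows in the counted Sort1 pieces occurred in a transcript of another gene on either strand. For Rragd, 72 of 4941 such windows (1.46%) did, and 0 of them occurred in the paralog Rragc. These 72 windows occurred in transcripts of 3017 other genes. Copies that differ by a mismatch were not searched. The row that carries the name Sort1 overlaps 0 exon bases of Sort1 and was not used. Rows lying in introns of Sort1 were nearly empty: a row of 2439 bases held 0, 2 and 0 counts in the healthy-labelled libraries and 5, 0 and 2 in the ARF-labelled ones, and a row of 3364 bases held between 0 and 6 counts in any library. A row of 327 bases in an intron of Rragd held 0 counts in all 6 libraries.

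Rragd was higher in every ARF-labelled library than in any healthy-labelled one. It received 3582, 2337 and 2934 counts in healthy-labelled replicates 1, 2 and 3, and 10250, 11777 and 12479 counts in ARF-labelled replicates 1, 2 and 3. Given as CPM, the count divided by the library's total count and multiplied by 1000000, these are 627, 813 and 808 against 1879, 2131 and 2016. The groups did not overlap, and healthy-labelled replicate 1 was the lowest of the 6. The mean was 749.6 ± 106 CPM (SD, n = 3) in the healthy-labelled group and 2009 ± 127 CPM (SD, n = 3) in the ARF-labelled group, a ratio of 2.68. After scaling by trimmed mean of M values (TMM), which sets the bulk of genes equal between libraries, the log2 fold change was 1.25 with a standard error of 0.14, or 2.38-fold higher.

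Sort1 showed the larger difference of the pair. It received 1659, 545 and 634 counts in healthy-labelled replicates 1, 2 and 3, and 5123, 5997 and 6384 counts in the ARF-labelled ones. As CPM the values were 291, 189.7 and 175 against 939, 1085 and 1031. The groups did not overlap here either, but healthy-labelled replicate 1, the lowest library for Rragd, was the highest of its group for Sort1. The mean was 218 ± 63.0 CPM (SD, n = 3) against 1018 ± 74.0 CPM (SD, n = 3), a ratio of 4.67. The log2 fold change after TMM scaling was 2.04 with a standard error of 0.21, or 4.12-fold higher. Levels of the 2 genes cannot be set against each other, since CPM takes no account of the counted length.

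**Figure D1:**
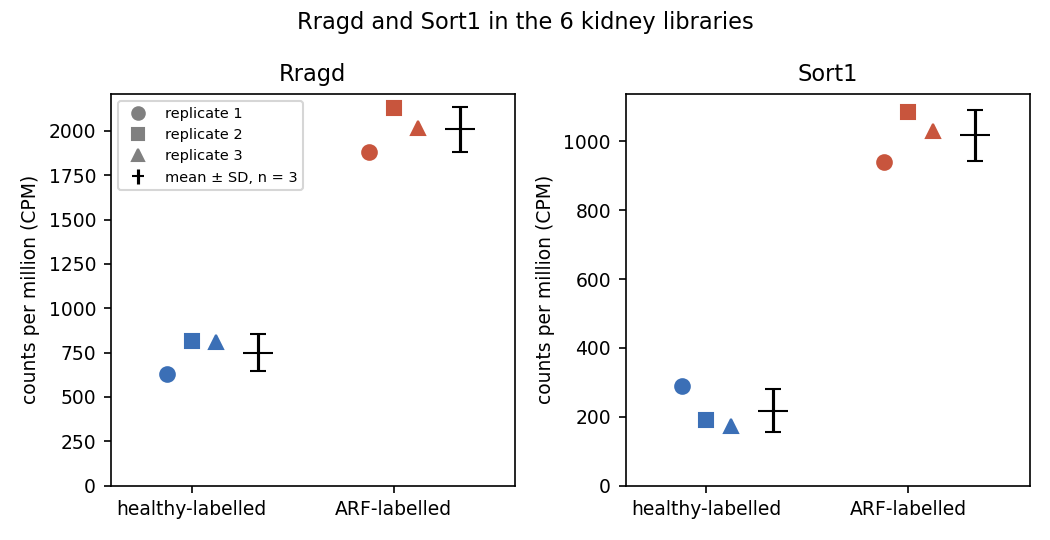
CPM (y axes, from 0) of Rragd and Sort1 in each kidney library, with points for libraries and bars for the mean and SD of 3 libraries per group. Rragd lies between 627 and 813 CPM in the healthy-labelled and between 1879 and 2131 CPM in the ARF-labelled libraries, and Sort1 between 175 and 291 and between 939 and 1085 CPM.

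Such separation was common among these libraries. Of 5246 genes with enough counts to be tested, 62.4% had groups whose CPM did not overlap, and 40.0% did so with the ARF-labelled group higher. By edgeR's quasi-likelihood test, 50.0% of the tested genes passed a Benjamini-Hochberg adjusted p of 0.05, 25.1% higher and 24.9% lower in the ARF-labelled group (1319 and 1305 genes). Genes that pass this threshold are said below to have risen or fallen. Scaling by the total count alone moved that split to 1749 higher and 1013 lower, 63.3% of calls higher in place of 50.3%, and moved the median log2 fold change of all tested genes from 0.01 to 0.19. Against this background, 2.84% of tested genes had a higher log2 fold change than Sort1, which ranked 150th, and 8.10% had a higher one than Rragd, which ranked 426th. Because the genes were chosen on this contrast, the ranks describe them and support nothing.

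The spread among replicates was wider in the healthy-labelled group for both genes. The coefficient of variation was 28.9% for Sort1 and 14.1% for Rragd there, against 7.27% and 6.30% in the ARF-labelled group. Leaving out 1 library at a time gave log2 fold changes of 1.88 to 2.31 for Sort1 and of 1.13 to 1.32 for Rragd. Scaling by the total count gave 2.22 for Sort1 and 1.42 for Rragd.

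The 4 rows that make up Sort1 gave nearly the same difference one by one. The row with exons 2 and 3 went from a mean of 24.4 ± 7.10 to 102 ± 8.72 CPM (SD, n = 3 each), a log2 fold change of 1.88 with a standard error of 0.21. The row with exons 8, 10 and 12, the largest contributor, went from 90.1 ± 26.7 to 420.4 ± 41.7 CPM, 2.05 with a standard error of 0.21. These rows lie in the part of the gene that encodes the lumenal, cargo-binding region of the receptor.

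The row with exon 15 went from 51.9 ± 14.8 to 229 ± 12.2 CPM (SD, n = 3 each), a log2 fold change of 1.96 with a standard error of 0.19. The row in the 3′ untranslated region went from 51.8 ± 15 to 267 ± 19.5 CPM, 2.19 with a standard error of 0.20. Each row held a similar share of the Sort1 counts in all 6 libraries, with small shifts between the groups. The row with exons 8, 10 and 12 held 40.2 to 42.4%, and the row with exon 15 held 22.1 to 25.4%. The row with exons 2 and 3 held 10.6 to 11.7% in the healthy-labelled and 9.18 to 10.6% in the ARF-labelled libraries. The 3′ row held 22.6 to 25.1% in the healthy-labelled and 25.1 to 27.5% in the ARF-labelled ones. The rows share the same RNA molecules and libraries, so they are not replicates of the difference.

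**Figure D2:**
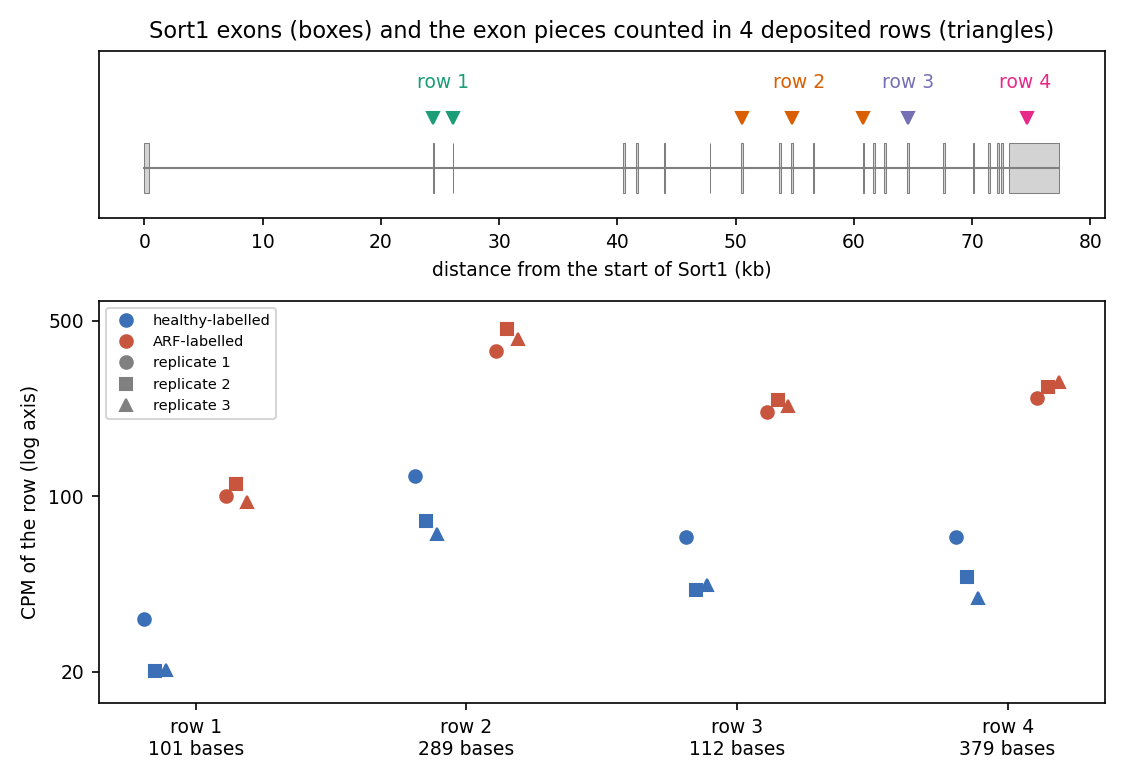
Top, the exons of Sort1 along the gene (boxes; x axis in kb from the start of the gene) with the pieces counted in the 4 deposited rows (triangles); row 1 is named Celsr2, row 2 Sars, row 3 Gm22942 and row 4 Gm43438. Bottom, the CPM of each row in each library (log axis; colour for the group, shape for the replicate): in every row all 3 ARF-labelled libraries lie above the healthy-labelled ones, and healthy-labelled replicate 1 is the highest of its group.

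The promoter of Rragd is shown because the gene is a known MiT-TFE target and these factors bind the E-box CACGTG. The window runs from 250 bases before to 50 bases after the annotated RefSeq start on GRCm38.p6, plus strand, and is printed 5′ to 3′ in lower case with nothing marked, since the motif has 0 matches in it.
Rragd promoter window, chr4:32982748-32983047: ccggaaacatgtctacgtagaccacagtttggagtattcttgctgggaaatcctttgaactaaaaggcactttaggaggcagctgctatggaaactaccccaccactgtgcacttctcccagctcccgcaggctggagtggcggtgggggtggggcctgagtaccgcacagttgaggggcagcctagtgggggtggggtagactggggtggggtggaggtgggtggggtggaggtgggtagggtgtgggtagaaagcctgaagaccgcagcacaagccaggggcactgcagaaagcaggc

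CACGTG reads the same on both strands, and it was also absent from the 571 bases of Rragd exon 1. No match says only that these letters are not in these windows. The Rragd window is rich in G on the printed strand, 38.7% against a median of 26.3% over all 32851 windows, and 92.6% of windows had less. Over all windows, 7.15% held CACGTG, and 11% of the 4057 tested genes with a window had one. Among the pathway genes that were read, Rragd and untested genes included, 19 of 62 with a window had one (30.6%). The shares of genes count each gene once, and the share of windows counts each window. Of these 19 genes, 4 rose (Atg5, Cln3, Ctsf and Gga2), 3 fell (Ctsl, Fnip1 and Igf2r), 11 did not pass and 1 was not tested, beside 50.0% of all tested genes that passed. The calls of Atg5, Fnip1 and Igf2r were each lost in some fits that left out 1 library, as given with each gene below.

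The genes that act with Sort1 and Rragd were taken from 10 lists, with 174 genes besides the pair, of which 71 could be read and 65 had enough counts to be tested. Of these 65, 19 rose and 14 fell, 50.8%, close to the 50.0% of all tested genes, and their median log2 fold change was 0.07 against 0.01 for all. A share so near the background is no result about the lists as a whole, and the account below is of single genes. Many genes were read through a short stretch of exon, and the genes Becn1 and Rb1cc1, which act early in autophagy in most cells, had close to 0 counts in every library over the 386 and 74 bases read. A low value here can thus not be taken as low expression.

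**Figure D3:**
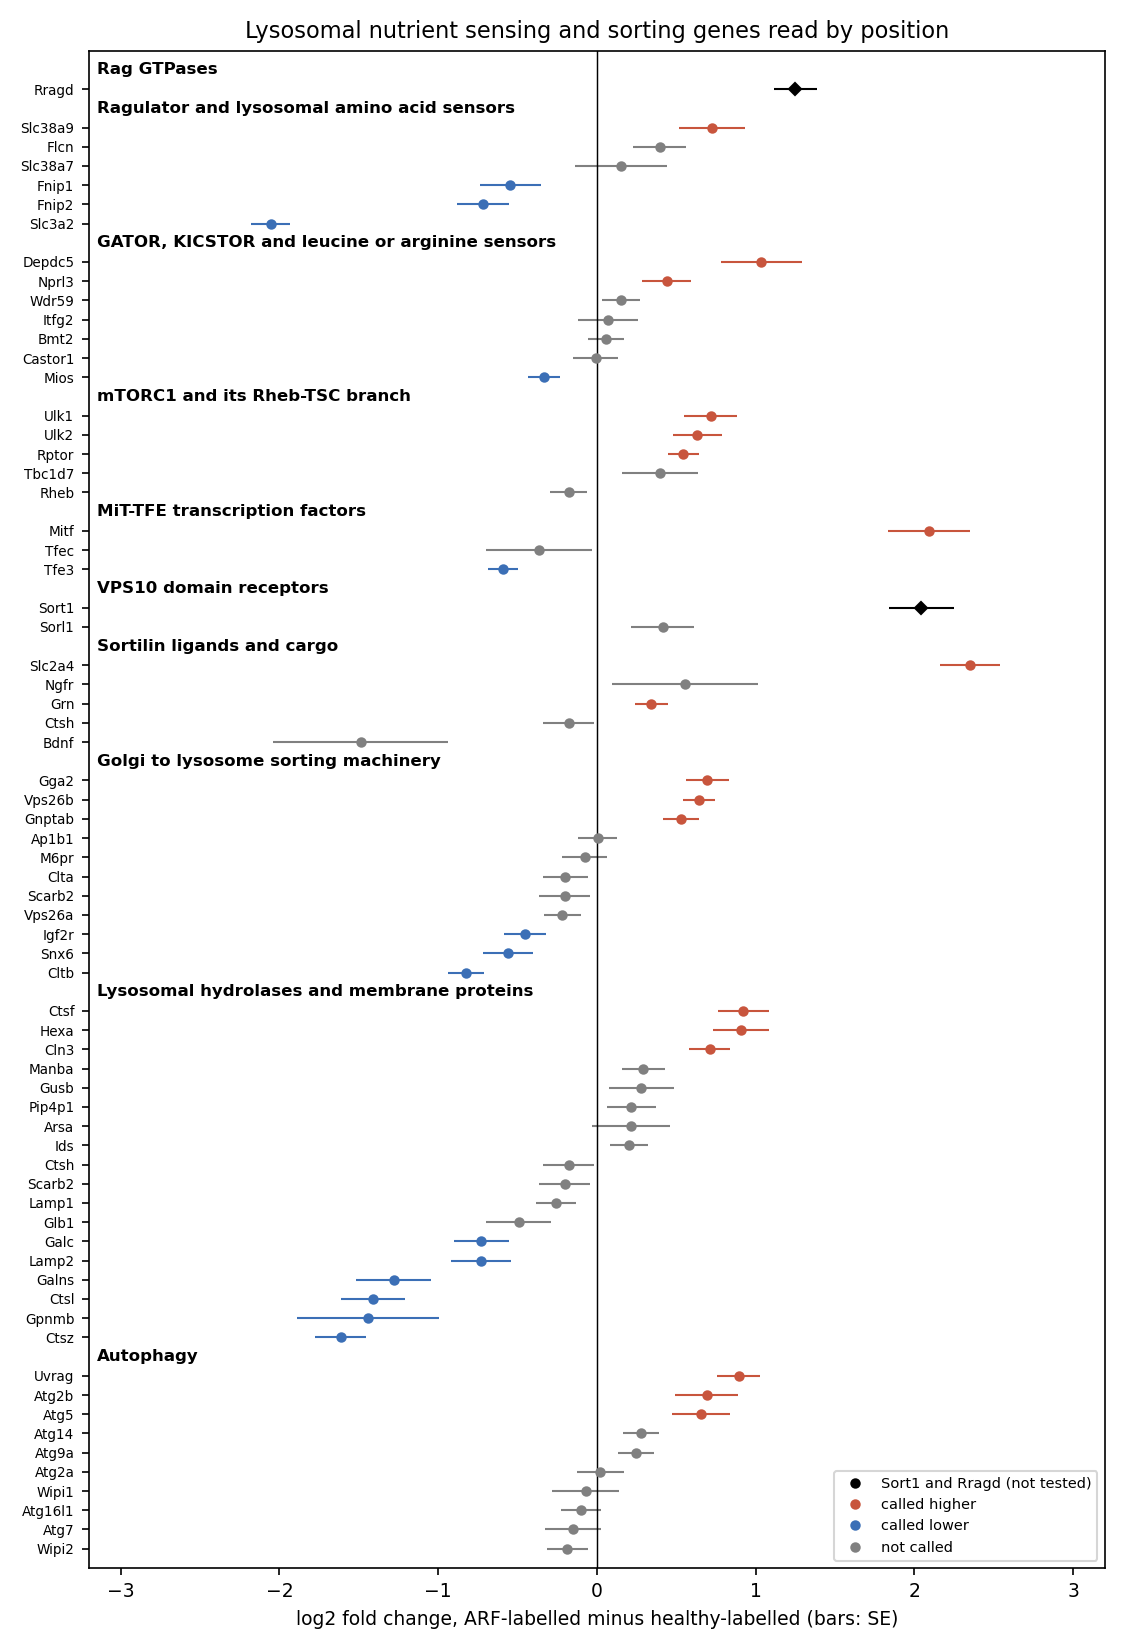
Log2 fold change (x axis, ARF-labelled minus healthy-labelled) with its standard error for Sort1, Rragd and the tested genes of the lists, less 1 gene, around them (y axis, by list); colours separate genes that rose, fell or did not pass an adjusted p of 0.05, and Sort1 and Rragd, which have no test. Sort1 at 2.04 is close to Mitf at 2.09 and Slc2a4 at 2.35, and Slc3a2 at -2.06 is the lowest.

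The other Rag GTPases, Rraga, Rragb and Rragc, were not read by position, so whether Rragd stands apart from its partners and its paralog was not analysed here. Of the Ragulator and lysosomal amino acid sensor genes, 6 of 15 were tested. Of these, 1 rose, 3 fell and 2 did not pass, with a median log2 fold change of -0.20. Slc3a2, the heavy chain that pairs with amino acid transporters at the cell surface and on lysosomes, fell from 254 ± 13.7 to 68.8 ± 9.98 CPM (SD, n = 3), a log2 fold change of -2.06 with a standard error of 0.12 and an adjusted p of 1.13e-05.

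Slc38a9, the lysosomal arginine sensor that signals to the Rag GTPases, rose from 13.4 ± 2.98 to 24.6 ± 4.0 CPM (log2 fold change 0.73, standard error 0.21, adjusted p = 0.0180). That call was lost without healthy-labelled replicate 1 (adjusted p = 0.0590) or ARF-labelled replicate 3 (adjusted p = 0.0608). Folliculin with its partners Fnip1 and Fnip2 is the GTPase activator of RagC and RagD, and so the regulator that acts on the RagD protein itself. Fnip2 fell from 233 ± 34.1 to 160.0 ± 30.8 CPM (log2 fold change -0.72, standard error 0.17, adjusted p = 0.00715). Fnip1 fell with a log2 fold change of -0.55 and an adjusted p of 0.0426, which did not hold without healthy-labelled replicate 2 or 3 or without ARF-labelled replicate 2 or 3 (adjusted p from 0.0807 to 0.144) nor with scaling by the total count (adjusted p = 0.143). Flcn itself, read over 110 bases, had a log2 fold change of 0.40 with an adjusted p of 0.0817. It passed without ARF-labelled replicate 2 (0.52, adjusted p = 0.0408) and with scaling by the total count (0.57, adjusted p = 0.0253).

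GATOR1 switches RagA and RagB off when amino acids are short, GATOR2 opposes it, and KICSTOR holds GATOR1 on the lysosome. Of this list 8 of 18 genes were tested: 3 rose, 1 fell and 4 did not pass, with a median of 0.11. The GATOR1 subunit Depdc5 rose from 10.7 ± 3.05 to 24.1 ± 5.89 CPM (SD, n = 3; log2 fold change 1.03, standard error 0.26, adjusted p = 0.00983). The GATOR1 subunit Nprl3 (0.44, adjusted p = 0.0434) and the GATOR2 subunit Mios (-0.33, adjusted p = 0.0245) passed by small margins. Nprl3 lost its call without any 1 of 5 libraries, all but healthy-labelled replicate 1 (adjusted p from 0.0652 to 0.160), and Mios without any 1 of 5, all but healthy-labelled replicate 3 (0.0587 to 0.101) and with scaling by the total count (0.203).

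Downstream of the Rags, 5 of 18 genes of mTORC1 and its Rheb-TSC branch were tested: 3 rose, 0 fell and 2 did not pass, with a median of 0.55. Rptor, the mTORC1 subunit that binds the Rag heterodimer, rose from 85.3 ± 4.48 to 140.4 ± 11.6 CPM (SD, n = 3; standard error of the log2 fold change 0.10, adjusted p = 0.00231). Ulk1 and Ulk2, the kinases that start autophagy and that mTORC1 holds in check, rose with log2 fold changes of 0.72 and 0.63 (adjusted p = 0.00741 and 0.00877). Rheb, the GTPase that switches mTORC1 on, was at 184 ± 14.4 and 183 ± 15 CPM (adjusted p = 0.233).

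Among the MiT-TFE transcription factors, which act on RRAGD and on lysosomal genes, 3 of 4 were tested. Mitf had 25, 9 and 13 counts in the healthy-labelled libraries and 106, 116 and 90 in the ARF-labelled ones, over 96 of its 5319 exon bases. It rose from 3.70 ± 0.631 to 18.3 ± 3.37 CPM (SD, n = 3), a log2 fold change of 2.09 with a standard error of 0.26 and an adjusted p of 0.000289. Tfe3 went the other way, from 150.5 ± 2.51 to 113 ± 7.29 CPM (log2 fold change -0.59, standard error 0.09, adjusted p = 0.00116). Tfec was at 45.3 ± 7.58 and 39.7 ± 21.8 CPM (log2 fold change -0.37, adjusted p = 0.389), and without ARF-labelled replicate 1 it passed at -0.89 (adjusted p = 0.00853). Tfeb was not read.

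Of the VPS10 receptors besides Sort1, only Sorl1 had enough counts over the bases read. Sorl1, the sorting receptor SORLA, was at 69.3 ± 20.4 and 105 ± 5.43 CPM (SD, n = 3), a log2 fold change of 0.42 with a standard error of 0.20 and an adjusted p of 0.113. It was read over 89 of its 10715 exon bases. Like Sort1, it was highest in replicate 1 within the healthy-labelled group. Without that library the log2 fold change was 0.69 and passed (adjusted p = 0.00436), as it did when scaled by the total count (0.59, adjusted p = 0.0293). Sorcs2 was at 1.12 and 1.80 CPM and was not tested, and Sorcs3 had 0 counts over the 73 bases read.

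Of 14 listed sortilin ligands and cargo, 5 were tested: 2 rose, 0 fell and 3 did not pass, with a median of 0.34. Slc2a4, which encodes GLUT4, rose the most among them. Its CPM values were 11.6, 18.4 and 12.1 in the healthy-labelled libraries and 72.2, 75.1 and 90.8 in the ARF-labelled ones. The groups lay far apart, with a log2 fold change of 2.35, a standard error of 0.19 and an adjusted p of 3.99e-05. Grn, the gene of progranulin, rose from 88.6 ± 1.12 to 127 ± 12 CPM (log2 fold change 0.34, adjusted p = 0.0256). The Grn call was lost without healthy-labelled replicate 2 or 3 or without ARF-labelled replicate 2 or 3 (adjusted p from 0.0672 to 0.0962). Ctsh, the lysosomal protease cathepsin H, was at 535 ± 86.5 and 534 ± 65.3 CPM (adjusted p = 0.386), and Bdnf, whose precursor sortilin binds, was at 3.42 ± 1.14 and 1.34 ± 0.924 CPM (adjusted p = 0.0503). Bdnf passed as lower without ARF-labelled replicate 1 (log2 fold change -1.99, adjusted p = 0.0364) and with the size factors of DESeq2 (adjusted p = 0.0493).

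Of 28 listed genes of the Golgi to lysosome machinery that works alongside sortilin, 11 were tested. Of these, 3 rose, 3 fell and 5 did not pass, with a median of -0.20. The share called, 54.5%, was near the 50.0% of all tested genes. Gga2, an adaptor that binds the tails of sortilin and of the mannose 6-phosphate receptors, rose from 62.5 ± 4.09 to 114 ± 14.5 CPM (SD, n = 3; log2 fold change 0.70, standard error 0.14, adjusted p = 0.00308). Vps26b, a subunit of the retromer that returns sortilin to the Golgi, rose from 107 ± 3.54 to 188 ± 12.2 CPM (0.64, standard error 0.10, adjusted p = 0.00101). Cltb, a clathrin light chain, fell from 146 ± 11.9 to 92.9 ± 8.96 CPM (-0.83, standard error 0.11, adjusted p = 0.000517).

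Snx6, a sorting nexin that works with retromer, fell with a log2 fold change of -0.56 (adjusted p = 0.0173), a call lost without healthy-labelled replicate 3 or ARF-labelled replicate 3 (adjusted p = 0.0569 and 0.0581) or with scaling by the total count (adjusted p = 0.0557). The other 2 calls were named after their values were seen: Gnptab, which builds the mannose 6-phosphate tag, rose (0.53, adjusted p = 0.00518), and Igf2r, the large receptor of that tag, fell (-0.45, adjusted p = 0.0198). The Igf2r call was lost without healthy-labelled replicate 1 (adjusted p = 0.0588), without ARF-labelled replicate 2 (adjusted p = 0.0701) and with scaling by the total count (adjusted p = 0.116). M6pr, the small receptor, was at 541 ± 67.4 and 579 ± 60.6 CPM (adjusted p = 0.687).

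Of 46 listed lysosomal hydrolases and membrane proteins, 18 were tested: 3 rose, 6 fell and 9 did not pass, with a median of -0.19; the share called equals that of all tested genes, and scaling by the total count gave 5 that rose and 6 that fell. The cathepsin genes Ctsz and Ctsl, which encode lysosomal proteases, fell from 98.6 ± 7.59 to 36.2 ± 6.71 CPM and from 517 ± 144 to 220 ± 26.6 CPM (SD, n = 3; log2 fold changes -1.61 and -1.41, adjusted p = 9.47e-05 and 0.000595). Galns, a sulfatase of keratan sulfate breakdown, fell by 1.28 on the log2 scale (adjusted p = 0.00246). Gpnmb, a glycoprotein of stressed lysosomes, was below 5 CPM in both group means and fell by 1.44 (adjusted p = 0.0255), a call lost in 4 of the 6 fits that left out 1 library (adjusted p from 0.0516 to 0.0842).

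The remaining calls in this list were also named after their values were seen: Lamp2 and Galc fell by 0.73 each, and Ctsf, Hexa and Cln3 rose by 0.92, 0.91 and 0.71 on the log2 scale. Lamp1, a main protein of the lysosomal membrane, was at 2256 ± 213 and 2133 ± 123 CPM (log2 fold change -0.26, adjusted p = 0.121). Of the autophagy genes, 10 of 28 were tested: 3 rose, 0 fell and 7 did not pass, with a median of 0.14. Uvrag, a partner of the lipid kinase that forms autophagosomes, rose from 26.7 ± 1.52 to 56.0 ± 5.57 CPM (log2 fold change 0.89, standard error 0.13, adjusted p = 0.000824). Atg5 (0.65, adjusted p = 0.0172) and Atg2b (0.69, adjusted p = 0.0193) act in autophagosome growth; Atg5 lost its call by a narrow margin without healthy-labelled replicate 2 (adjusted p = 0.05004), and Atg2b lost its call in 4 of the 6 fits that left out 1 library (adjusted p from 0.0522 to 0.0718).

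Of the tested genes next to Rragd and Sort1, 12 passed, 6 in each direction, beside 50.0% of all tested genes, so the counts say nothing particular to these loci. Within 500 kb of Rragd, 11 genes were tested, all read over their full exon length: 3 rose, 4 fell and 4 did not pass, with a median of 0.18. The nearest neighbour read on the lower-coordinate side, Ankrd6, 32.2 kb away, rose with a log2 fold change of 1.39 (standard error 0.15, adjusted p = 0.000140). On the other side, the nearest tested gene, 4933421O10Rik, 4.96 kb away, was at 10.6 and 15.7 CPM (log2 fold change 0.41, adjusted p = 0.212). Ube2j1, an endoplasmic reticulum ubiquitin-conjugating enzyme 9.24 kb away, fell by 0.49 (adjusted p = 0.0105). Further out, Pm20d2 rose by 1.35 and Lyrm2 by 0.62, the latter lost without healthy-labelled replicate 3 (adjusted p = 0.0544), while Bach2, Pnrc1 and Srsf12 fell by 1.19, 0.65 and 1.39. The Srsf12 call was lost without healthy-labelled replicate 3 or without ARF-labelled replicate 1 or 2 (adjusted p from 0.0714 to 0.114), and in DESeq2 (adjusted p = 0.110).

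Within 500 kb of Sort1, 42 genes are annotated, 13 were read, all in part, and 11 were tested: 3 rose, 2 fell and 6 did not pass, with a median of 0.02. Psma5, a proteasome subunit gene 4.11 kb away, was at 11.8 and 10.8 CPM over 64 bases (log2 fold change -0.31, adjusted p = 0.412). Amigo1 rose by 1.48 (adjusted p = 0.00103), Gstm2, a glutathione transferase, by 1.27 (adjusted p = 0.00115) and Gnat2 by 1.15, which did not pass without healthy-labelled replicate 3 (adjusted p = 0.0511). Gnai3, an inhibitory G protein subunit, fell by 1.03 (adjusted p = 0.000276) and Cyb561d1 by 0.34, which did not pass without healthy-labelled replicate 3 or ARF-labelled replicate 1 or 2 (adjusted p from 0.0557 to 0.0857) or with scaling by the total count (0.202).

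**Figure D4:**
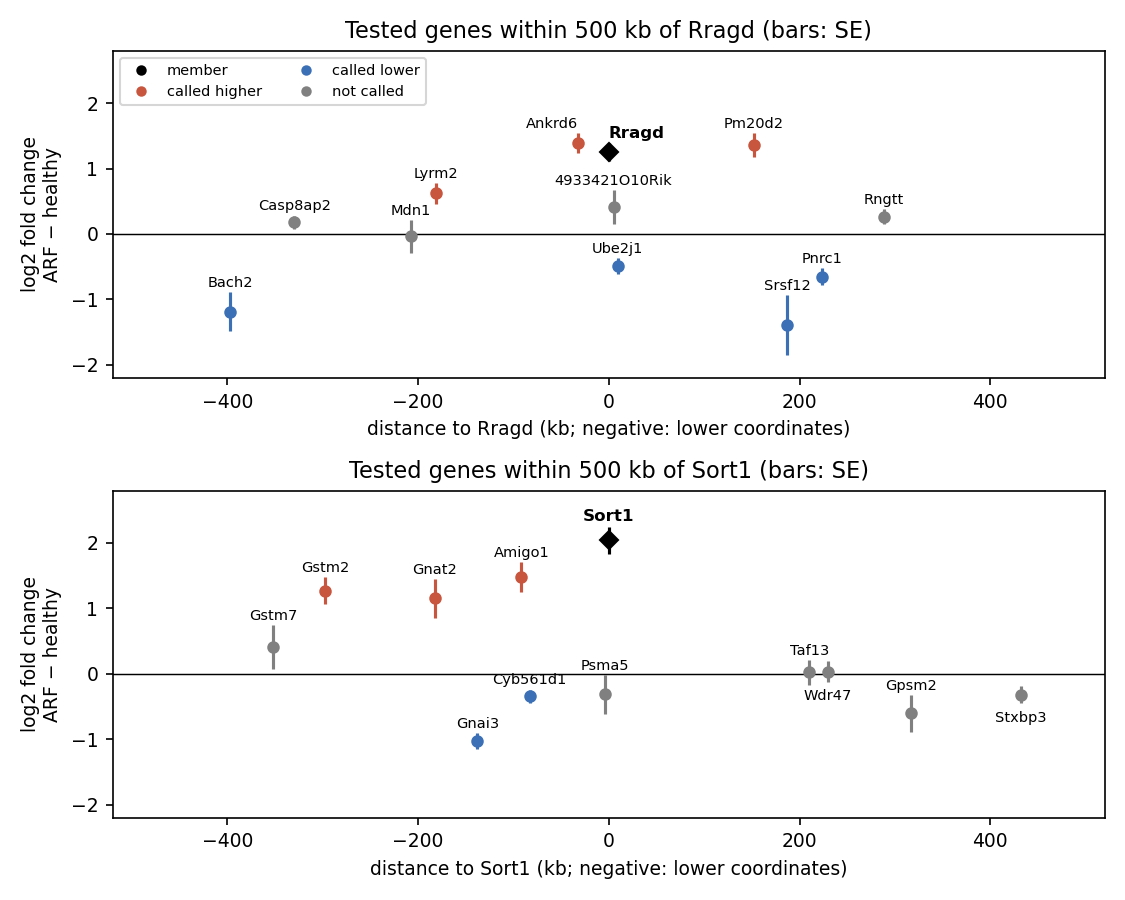
Log2 fold change, ARF-labelled minus healthy-labelled, with its standard error (y axes), of tested genes within 500 kb of Rragd and of Sort1, against their distance in kb (x axes, negative toward lower coordinates). Beside Rragd at 1.25, Ankrd6 lies at 1.39, 4933421O10Rik at 0.41 and Ube2j1 at -0.49, and beside Sort1 at 2.04, Psma5 lies at -0.31.

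Markers of kidney cell types differed between the same libraries. The counts below stand beside 25.1% of all tested genes that rose and 24.9% that fell. In whole kidney, fewer cells of a type and less RNA per cell cannot be told apart. All 4 tested markers of collecting duct principal cells rose, with a summed level of 3350 to 4069 CPM in the healthy-labelled and 9488 to 11305 CPM in the ARF-labelled libraries. Aqp3 made up most of that sum, at means of 3224 and 8297 CPM. All 7 tested markers of acid-base secreting intercalated cells rose, from 1202 to 1492 CPM up to 5048 to 6137 CPM. Of 6 proximal tubule markers 5 fell, and the other, Lrp2, did not pass. All 6 together summed to 4310 to 6592 CPM in the healthy-labelled and 2524 to 3821 CPM in the ARF-labelled libraries. Lrp2, at means of 1529 and 1946 CPM, made up a large part of those sums and did not share in the fall. Of 3 loop of Henle markers 1 rose and 1 fell (41.3 to 72.7 against 231 to 249 CPM), and of 3 distal convoluted and connecting tubule markers 1 rose and 2 fell (827 to 1956 against 3452 to 6105 CPM). A single gene carried each of these sums: Kcnj1 rose from a mean of 12.9 to 192 CPM and Calb1 from 1013 to 4513 CPM, while Trpm6 fell from 54.9 to 18.7 CPM and Trpv5 from 202 to 77.4 CPM. Umod, Slc12a1 and Slc12a3, the defining genes of the thick limb and distal convoluted tubule, and Aqp2 were not read. Of 2 tested podocyte markers 1 rose and 1 fell, and of 5 fibroblast markers 1 rose, 1 fell and 3 did not pass. Of 2 urothelium markers 1 rose and 1 did not pass. The part of these cell types in the Sort1 and Rragd values was not tested.

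The genes of injured tubules that could be read went against the group labels. Of 10 listed injury markers 5 were tested, and all 5 fell in the ARF-labelled group. Their summed level went from 10163 to 16352 CPM down to 1970 to 2726 CPM, most of it from Clu and Krt8. Havcr1, Lcn2, Krt18, Sox9 and Spp1 were not read. All 5 tested immediate early genes, of 9 listed, fell as well. Of all tested genes, 24.9% fell. Of the tested blood and vessel markers, 4 of 5 macrophage, 2 of 2 neutrophil, 3 of 4 endothelial and 2 of 2 erythroid genes fell, with Hbb-bt listed at 0. The groups are therefore called by their labels throughout, and the direction of each difference holds only as far as those labels do. Total counts ran from 2873370 to 6191479 per library. Pearson correlations of log CPM were 0.97 to 0.98 within a group and 0.86 to 0.90 between groups.

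The genes whose profile over the 6 libraries was most like that of Rragd or Sort1 were other than the partner. Likeness was the Pearson correlation of log2(CPM + 1) across the 6 libraries, among 3942 tested genes with a mean of at least 10 CPM, and it is a description in which the gap between the groups dominates. For Sort1 the 5 highest were Kcnq1ot1 (r = 0.999), Lrba, Gm13652, Sh3tc1 and Sephs1 (0.998 each). For Rragd they were Fancg (0.999), Gm15624, Acin1 (0.998 each), Cdc37l1 and Sox12 (0.997 each). The correlation between Sort1 and Rragd was 0.933, and 821 genes were more like Sort1 than Rragd was, and 734 more like Rragd than Sort1 was.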

How the data were processed

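Kidney RNA was sequenced in 6 libraries made with an Illumina TruSeq kit, per the labels. The deposited values are whole-number counts per named row, made by the authors with featureCounts 2.0.1 per the file headers, over exons, for pairs with both ends mapped, without strand. Bowtie 0.12.2 and mm9 appear among the tools and builds in the submitters' processing notes. The aligner behind the counted files and the build of the row names are not given in the sources used here.

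Each of the 53546 rows was compared with GENCODE M21 basic exons (GRCm38, bedtools 2.31.1). In all, 12401 rows were given to 9519 genes and held 63.0% of counts. Counts were summed per gene and tested with edgeR 4.0.16 (R 4.3.3; quasi-likelihood, TMM, filterByExpr, library totals over all rows, Benjamini-Hochberg over 5246 genes), after a check on simulated data. CPM used the same totals. DESeq2 1.42.0 was an alternative. Depth sets counting error only, and isoforms, overlapping genes and strands could not be separated.

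Sort1 and Rragd, and the gene lists, were chosen with earlier results of these data known. Genes named were the members, list members readable in the Rag, MiT-TFE and VPS10 lists, up to 4 called genes of each other list with the largest change, genes not called that the text needed, tested neighbours and the 5 most alike. Of the tested list genes, 1 is counted but not reported here.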

Additional observations from a re-analysis of the deposited data

How the results depend on the processing

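Sort1 and Rragd kept their direction in every alternative fitted: other size factors, total-count scaling, DESeq2, no low-count filter, a replicate block, stricter rules for reading rows, and leaving out each library. Both genes were chosen for this difference, so the kept direction is a description. Rragd moved by more than its replicate spread with total-count scaling (log2 fold change 1.42). Leaving out 1 library gave 2117 to 2495 changed genes in place of 2624. In the lists it gave 2 to 4 changed genes for Ragulator and sensors (4 with all libraries; 2 without ARF-labelled replicate 3), 2 to 3 for GATOR and KICSTOR (4 with all), 0 to 1 for VPS10 receptors (0 with all; 1 without healthy-labelled replicate 1) and 1 to 3 for sortilin cargo (2 with all). Total-count scaling called 1 VPS10 receptor and 5 autophagy genes in place of 0 and 3. Reading only rows that each overlap at least 100 exon bases of their gene left 1 changed MiT-TFE gene in place of 2, because Mitf was no longer read. Otherwise the cause was not tested. The replicate numbers showed no sign of pairing the libraries: deviations of same-numbered libraries correlated at -0.07, -0.22 and -0.29. With 3 libraries per group these deviations depend on each other, so a weak pairing could not be seen. With the replicate block, 1135 genes were higher and 1153 lower, with 2 changed genes for GATOR and KICSTOR and 1 for sortilin cargo. Among 809 alternative values for 63 genes, 58 lost a call, 11 gained one and 0 reversed. Sort1 rests on 12.8% of its exon bases.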
